A study of Homo sapiens with 48 samples.

Results

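The 10 genes described here are targets of the tumour suppressor p53 that act in cell death: BAX, BBC3, PMAIP1, FAS, TNFRSF10B, EDA2R, APAF1, PIDD1, AEN and CDIP1. They were taken by symbol from a list of p53 targets that act in cell death, and all 10 were found among the 19102 genes of the deposited table. p53 is a transcription factor that binds a paired sequence element and raises the transcription of genes that arrest the cell cycle or kill the cell. The products of its death genes act at several points: BAX, BBC3 (PUMA) and PMAIP1 (NOXA) at the mitochondrion, FAS, TNFRSF10B and EDA2R at the cell surface, and APAF1 and PIDD1 on caspases. In glioblastoma, a brain tumour, the p53 pathway is commonly disabled, among other ways through its inhibitors such as MDM2.

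The cells were A382, an established human glioblastoma line grown in DMEM with serum, and polyadenylated RNA was sequenced with a stranded kit in 48 libraries. For 44 libraries the cells had been infected with lentivirus carrying a guide RNA and were taken at day 9, with 4 control guides (sgNeg1 to sgNeg4, 2 libraries each), 2 guides with 2 libraries each for BRD8 and for H2AZ, and 2 guides with 1 library each for TRRAP, EP400, TIP60, RUVBL1, RUVBL2, ACTL6A, DMAP1, GAS41, VPS72, ING3, MEAF6, MRGBP, MORF4L1 and MORF4L2. Most of these targets are subunits of the EP400/TIP60 chromatin complex, which acetylates histones and exchanges the histone variant H2A.Z into nucleosomes. The last 4 libraries came from A382 cells with a doxycycline-inducible p53 (P53, 2 libraries) or a control vector (PCW, 2 libraries), both 2 days after doxycycline. The knockout libraries come from infected cell populations, in which the share of edited cells is not given in the sources used here. Whether the libraries of a group are separate cultures is not stated, and p-values here reflect only their spread, part of which may be technical. In RNA from bulk cells, a change in all cells and a change in a share of them cannot be told apart.

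FPKM, the unit of the table, scales fragment numbers by transcript length and by sequencing depth, and the table falls into 5 sections that were scaled separately. Knockouts were therefore set only against the sgNeg libraries that share their section. Levels also differed between sections by unlike factors, and among the sgNeg pairs each gene described here was lowest in sgNeg1. PMAIP1 had a mean of 2.45 FPKM there against 36.8 to 50.4 in the other sgNeg pairs, and FAS 8.58 against 13.7 to 18.0. In the sgNeg1 section 8081 to 8158 genes reached 1 FPKM per library, against 10503 to 11853 in the others. The reason was not tested. At 1 FPKM a kilobase of transcript held an estimated 4.17 to 7.26 fragments in the sgNeg4 section and 8.0 to 21.1 in the other 4. Guide 2 of MEAF6 and guide 2 of VPS72 had identical columns, which were left out, so both targets rest on 1 library. The mRNA of the targeted gene was called lower in 8 of 16 knockouts, at 18.6% to 51.5% of its control, and in the other 8 it was at 40.5% to 103.4% and not called. Of 6 genes listed for a glioma line, VIM and CD44 were high in all libraries, SOX2 had a median of 29.3 FPKM and was under 1 FPKM in 6 libraries, those of sgNeg1 and BRD8. NES was under 1 FPKM in 44 libraries, and GFAP and OLIG2 in all 48, as were the defining immune genes PTPRC, CD3E and AIF1 and the endothelial genes PECAM1 and CDH5. CD68, KRT8, KRT18, SYT1 and SNAP25 were expressed.

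Promoter windows of 300 bases around the gene start were taken from RefSeq (GRCh38.p14) for 9 of the 10 genes, 13 windows in all, to see which of these genes carry a p53 element close to the start. An exact match to the 10-base p53 consensus, which reads the same on both strands, was present in 6.63% of all 35116 such windows. A match with a second copy of at most 2 mismatches directly before or after it was present in 0.356%. Of the 13 windows 2 held such a pair, those of FAS and AEN, and these 2 are shown here. Both genes rose with p53 induction, as did all 10, and in the same 3 knockouts below. TNFRSF10B, which had no window, and EDA2R, whose windows held no such pair, also rose in those 3 knockouts. Whether the pair has a part in these rises was not tested. Capitals mark the pair, at bases 129 to 148 of the FAS window (chr10:88991181-88991480, plus strand), which is 1 of 3 FAS windows, and at bases 217 to 236 of the AEN window (chr15:88621090-88621389, plus strand). A match describes letters in the window and does not show binding.
FAS: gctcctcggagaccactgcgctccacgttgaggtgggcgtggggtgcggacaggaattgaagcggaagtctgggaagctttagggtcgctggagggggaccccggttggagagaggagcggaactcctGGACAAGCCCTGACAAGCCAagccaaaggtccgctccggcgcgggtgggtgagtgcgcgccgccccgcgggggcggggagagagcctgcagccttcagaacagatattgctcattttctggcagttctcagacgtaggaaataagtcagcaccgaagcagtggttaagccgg
AEN: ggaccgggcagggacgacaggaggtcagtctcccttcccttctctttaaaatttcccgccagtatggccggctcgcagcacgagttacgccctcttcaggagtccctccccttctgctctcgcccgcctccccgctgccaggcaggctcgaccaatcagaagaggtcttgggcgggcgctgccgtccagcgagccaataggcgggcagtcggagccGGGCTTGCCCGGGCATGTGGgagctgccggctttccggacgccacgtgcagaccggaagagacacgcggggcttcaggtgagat

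Inducing p53 raised all 10 genes. A gene was called where limma on log2(FPKM + 1) gave an adjusted p under 0.05 (Benjamini-Hochberg, across every gene tested). Of the tested genes, 37.6% were called higher and 46.7% lower in this comparison, so a call alone says little here and the sizes matter more. The median difference of the 10 genes was 0.89 in log2 units, against -0.13 over all genes tested. All differences with p53 induction are relative to a scale on which the median gene moved by -0.13.

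Among the genes acting on caspases, APAF1 forms the apoptosome that activates caspase 9. It stood at 4.77 and 4.18 FPKM with the PCW vector and at 47.1 and 50.2 with p53, a 10.9-fold rise (log2 difference 3.18 ± 0.07 SE, adjusted p = 4.43e-08). PIDD1, the scaffold through which caspase 2 is activated, went from 12.5 and 13.3 to 154 and 140 FPKM, or 11.4-fold (3.41 ± 0.06, adjusted p = 2.28e-08). CDIP1, a pro-apoptotic membrane protein of endosomes and lysosomes, went from 6.24 and 6.17 to 70.3 and 68.3 FPKM, or 11.2-fold (3.29 ± 0.05, adjusted p = 1.75e-08). These 3 genes formed a group apart, since none of the other 7 rose by more than 2.25-fold.

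The mitochondrial genes rose less. BBC3, which frees BAX by binding the BCL2 proteins that restrain it, went from 15.7 and 17.4 to 36.1 and 38.6 FPKM, 2.25-fold (1.13 ± 0.07). PMAIP1, which acts mainly against MCL1, went from 47.2 and 46.6 to 78.5 and 90.0 FPKM, 1.79-fold (0.83 ± 0.07). BAX, the pore former, already had the highest level of the 10 and went from 255 and 248 to 378 and 352 FPKM, 1.45-fold (0.54 ± 0.05). In each case both P53 libraries lay above both PCW libraries.

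The cell surface receptors and the nuclease moved by similar amounts. FAS rose 1.94-fold, from 19.7 and 20.4 to 37.4 and 40.4 FPKM. AEN, an exonuclease that promotes apoptosis, rose 1.83-fold, from 36.9 and 38.1 to 68.8 and 68.1 FPKM. EDA2R, a receptor of ectodysplasin A2, rose 1.53-fold, from 17.1 and 16.7 to 25.1 and 26.7 FPKM. TNFRSF10B, a receptor of the death ligand TRAIL, showed the smallest rise of the 10, 1.32-fold from 102 and 106 to 138 and 135 FPKM (0.39 ± 0.04, adjusted p = 1.03e-04), and its groups did not overlap either. All 10 calls held when any 1 of the 4 libraries was left out.

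**Figure D1:**
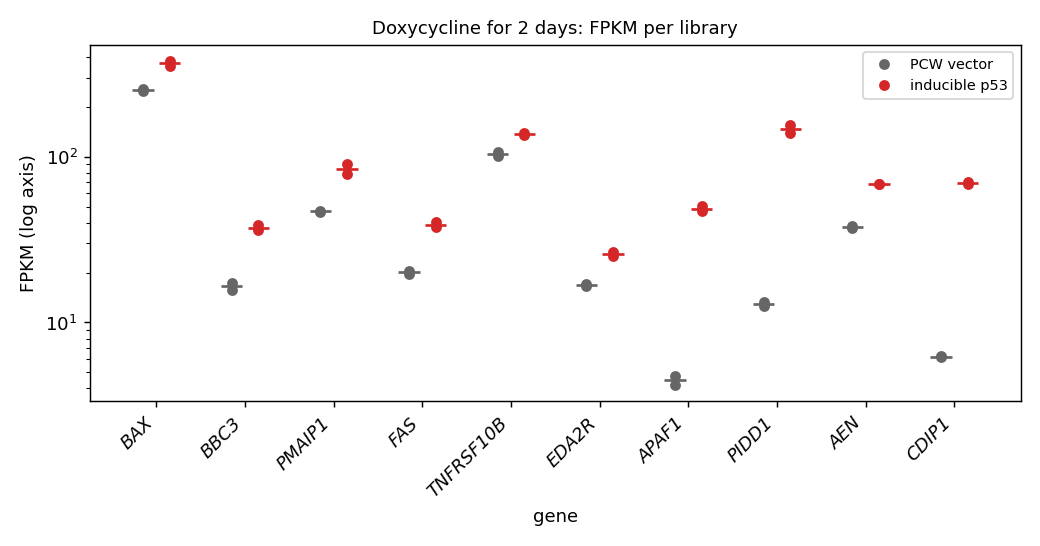
FPKM (log axis) of the 10 p53 cell death genes in the 2 libraries of the PCW vector (grey) and the 2 libraries of inducible p53 (red), with lines at the means. The red points of APAF1, PIDD1 and CDIP1 lie more than 10-fold above the grey ones, and those of the other 7 genes by 2.25-fold or less.

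Exons of 3 of these genes overlap a gene on the opposite strand in the annotation: APAF1 with ANKS1B, PIDD1 with PANO1 and TNFRSF10B with RHOBTB2. The kit keeps the strand, but whether the authors' FPKM used it is not given in the sources used here, so reads of each pair might not be fully separated. ANKS1B also rose with p53, from 1.96 and 3.35 to 8.57 and 9.83 FPKM, and PANO1 from 1.24 and 1.23 to 2.88 and 2.04. Their part in the APAF1 and PIDD1 values was not tested. RHOBTB2 went from 4.81 and 5.30 to 4.68 and 4.71 FPKM while TNFRSF10B rose.

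In the knockouts 9 of the 10 genes were called at least once, and calls fell in 6 of the 16 targets: RUVBL2 (7 genes), RUVBL1 (6), BRD8 (5), TIP60 (4), TRRAP (4) and EP400 (1). Of all tested genes 33.4%, 27.8%, 45.9%, 42%, 14.2% and 3.83% were called in these targets in the same order, so the shares in BRD8 (5 of 9) and TIP60 (4 of 10) were near those of all genes. The directions of the calls differed between targets. In RUVBL1 and RUVBL2 all calls were higher (with the libraries of each comparison fitted alone, 8 and 7 were higher and 1 each, APAF1, lower, where 56.1% and 62.4% of all genes were called), in BRD8 4 were higher and 1 lower, in TIP60 2 each way, and in TRRAP 1 higher and 3 lower. BAX was called in no knockout.

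**Figure D2:**
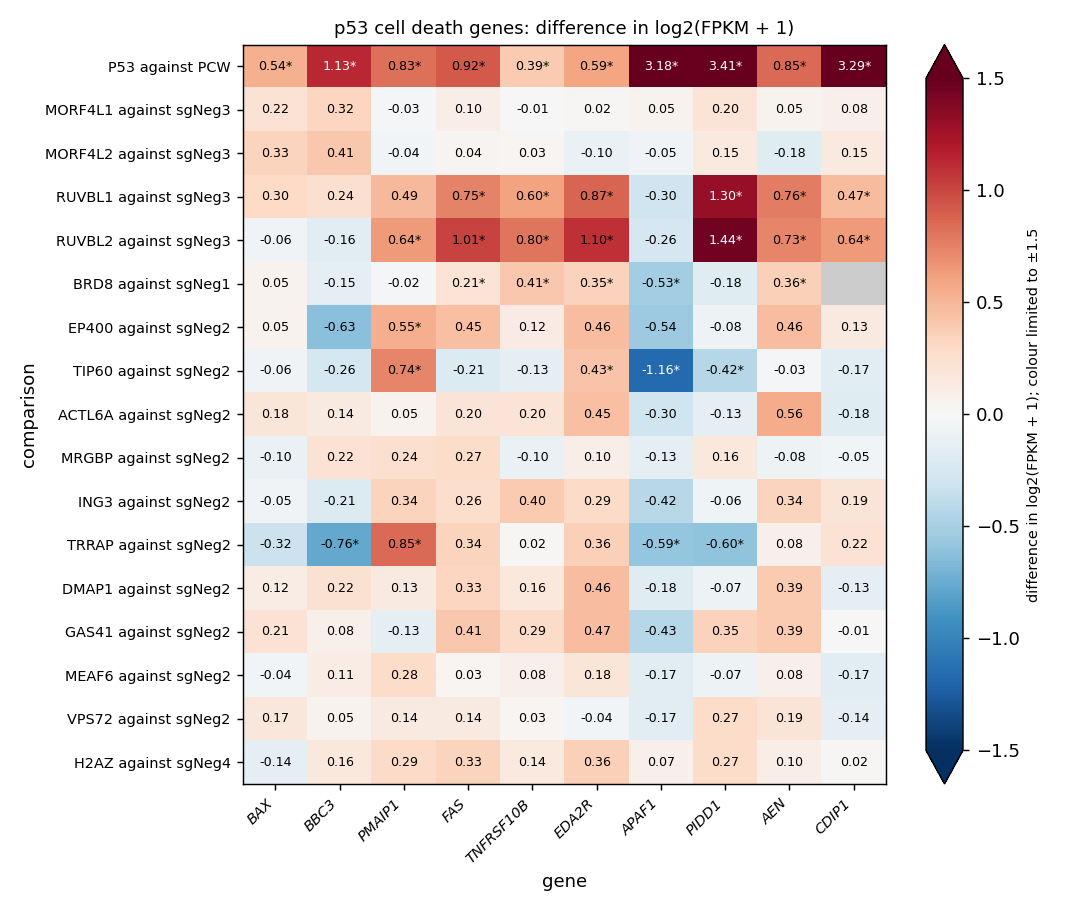
Difference in log2(FPKM + 1) of each gene (columns) in each comparison with its own control pair (rows), printed in each cell with a star where the adjusted p was under 0.05. The grey cell marks CDIP1 in BRD8, which was too low to be tested. The p53 row is red throughout, RUVBL1 and RUVBL2 share most of their starred genes, and the APAF1 column is red only for p53 among starred cells and blue for BRD8, TIP60 and TRRAP.

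RUVBL1 and RUVBL2 are paired AAA+ ATPases that build the core of this and several other chromatin complexes. Loss of RUVBL2 raised 7 of the 10 genes and lowered 0, where 13.5% of 11063 tested genes were called higher and 19.9% lower. Loss of RUVBL1 raised 6 and lowered 0, where 12.3% were called higher and 15.5% lower. The median difference of the 10 genes was 0.68 in RUVBL2 and 0.55 in RUVBL1, against -0.05 and -0.02 over all genes tested. The 2 targets share the sgNeg3 pair as control, so their folds are not independent of each other.

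PIDD1 changed most. It stood at 7.94 and 8.52 FPKM in the sgNeg3 pair, at 17.9 and 26.4 in the RUVBL1 libraries and at 23.0 and 25.3 in the RUVBL2 libraries, with no overlap. The rises were 2.69-fold in RUVBL1 (1.30 ± 0.21 in log2 units, adjusted p = 0.00331) and 2.93-fold in RUVBL2 (1.44 ± 0.21, adjusted p = 0.00138). PANO1, which overlaps PIDD1, rose too, from 0.907 and 0.579 FPKM to 1.70 and 2.30 in RUVBL1 and 2.49 and 3.22 in RUVBL2, and its part in the PIDD1 values was not tested.

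All 3 cell surface receptors rose in both targets. EDA2R went from 11.1 and 11.2 FPKM to 21.7 and 20.8 in RUVBL1 (1.91-fold) and 25.7 and 24.3 in RUVBL2 (2.24-fold). FAS went from 13.1 and 14.4 FPKM to 25.3 and 22.2 in RUVBL1 (1.73-fold) and 29.4 and 27.9 in RUVBL2 (2.09-fold). TNFRSF10B went from 77.0 and 79.3 FPKM to 116 and 122 in RUVBL1 (1.52-fold) and 146 and 129 in RUVBL2 (1.75-fold). Every knockout library of these genes lay above both controls, while RHOBTB2, which overlaps TNFRSF10B, was at 7.44 and 7.90 FPKM in the controls and at 6.71 to 7.40 in the knockouts.

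AEN went from 25.1 and 25.0 FPKM to 43.5 and 43.0 in RUVBL1 and 42.5 and 41.8 in RUVBL2, 1.73-fold and 1.68-fold. CDIP1 went from 4.15 and 4.22 FPKM to 5.61 and 6.82 in RUVBL1 and 7.003 and 7.15 in RUVBL2, 1.48-fold and 1.69-fold. Both genes were called in both targets and their groups did not overlap. PMAIP1 went from 35.6 and 38.0 FPKM to 63.6 and 52.7 in RUVBL2, 1.58-fold (0.64 ± 0.20, adjusted p = 0.0372), a call that ended when any 1 of the 4 libraries was left out and without the filter on low values. In RUVBL1 it stood at 58.9 and 46.1 FPKM and was not called (0.49 ± 0.20, adjusted p = 0.0996).

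The other 3 genes were not called in either target. BAX stood at 326 and 314 FPKM in the controls, at 367 and 422 in RUVBL1 and at 295 and 321 in RUVBL2. BBC3 stood at 12.2 and 10.3 in the controls, at 13.5 and 13.3 in RUVBL1 and at 9.61 and 10.2 in RUVBL2. APAF1 lay lower in all 4 knockout libraries (5.98, 5.51, 5.92 and 5.98 FPKM) than in both controls (7.37 and 7.24), with an adjusted p of 0.0712 for RUVBL1 and 0.104 for RUVBL2. In both targets MDM2 and CDKN1A (p21) were called higher, MDM2 by 0.90 ± 0.11 in RUVBL1 and 1.08 ± 0.11 in RUVBL2.

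Compared directly, RUVBL2 and RUVBL1 libraries differed in 0 of the 10 genes by limma, where 0.00904% of all tested genes were called and 0 of the 10 genes had an unadjusted p under 0.05. The differences ran from -0.40 ± 0.18 for BBC3 and -0.35 ± 0.21 for BAX to 0.27 ± 0.17 for FAS, which leaves room for differences of that size. The RUVBL1 count was also less firm than that of RUVBL2. It fell to 3 without either sgNeg3 library or without RUVBL1 guide 2, with FAS, TNFRSF10B and CDIP1 lost each time. The FAS call also ended without RUVBL1 guide 1, whereas the RUVBL2 count stayed at 6 in each such fit.

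**Figure D3:**
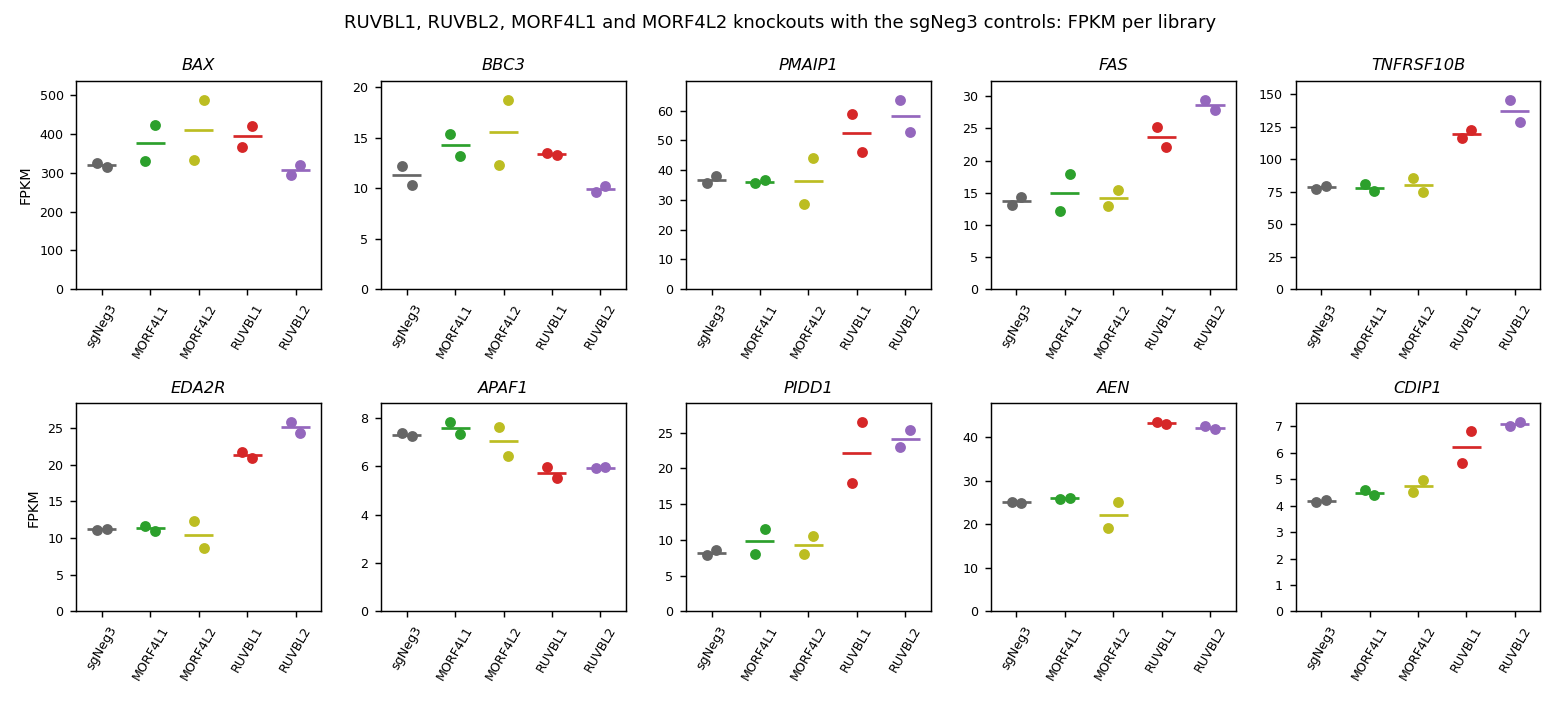
FPKM of the 10 genes (axes from 0) in the sgNeg3 controls and in the MORF4L1, MORF4L2, RUVBL1 and RUVBL2 knockouts, 1 point per library and a line at each mean. PIDD1, EDA2R, FAS, TNFRSF10B, AEN, CDIP1 and PMAIP1 lie above both controls in all RUVBL1 and RUVBL2 libraries, and APAF1 lies below them.

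The MORF4L1 and MORF4L2 knockouts of the same section had 0 of 10 genes called, with 0% of all tested genes called in each by limma. At an unadjusted p under 0.05 there were 85 genes in MORF4L1, 0 of them among the 10, and 230 in MORF4L2, 1 of them among the 10. Their targeted mRNAs were at 103.4% and 92.8% of control. Without MORF4L2 guide 1, BBC3 was called higher in MORF4L2.

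BRD8 is a bromodomain subunit of the complex and the subject of the series title. In its section 9 of the 10 genes were tested, because CDIP1 was under 1 FPKM in all 6 libraries. Of the 9, 4 were called higher and 1 lower, where 24.2% of 8458 tested genes were called higher and 21.7% lower. The median difference of the 9 genes was 0.05, against 0.02 over all tested genes. MDM2 (0.77 ± 0.08) and CDKN1A (0.38 ± 0.07) were called higher.

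The 3 cell surface receptors and AEN made up the genes that rose in BRD8. TNFRSF10B stood at 14.6 and 15.2 FPKM in the sgNeg1 pair and at 21.1, 19.7, 19.96 and 19.4 in the BRD8 libraries, 1.35-fold (0.41 ± 0.06, adjusted p = 4.28e-04). EDA2R stood at 1.32 and 1.47 FPKM in the controls and at 1.77, 2.20, 2.14 and 2.08 in BRD8, 1.47-fold. AEN stood at 1.26 and 1.42 FPKM in the controls and at 1.80, 2.12, 1.82 and 2.25 in BRD8, 1.49-fold. In all 3 genes the groups did not overlap.

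FAS stood at 8.84 and 8.32 FPKM in the controls and at 11, 10.2, 9.60 and 9.46 in BRD8, 1.17-fold (0.21 ± 0.07, adjusted p = 0.0374). That call ended without either sgNeg1 library or either library of BRD8 guide 1, with guide 2 alone, and without the filter on low values. Without sgNeg1 replicate 1 the calls of AEN and EDA2R ended too, which left TNFRSF10B and APAF1. RHOBTB2 also rose in BRD8, from 2.10 and 2.39 FPKM to between 2.64 and 3.26, and its part in the TNFRSF10B values was not tested.

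APAF1 was the member that fell in BRD8. It stood at 3.17 and 2.93 FPKM in the controls and at 1.70, 1.54, 2.01 and 2.02 in BRD8, 59.7% of control (-0.53 ± 0.09, adjusted p = 0.00101), with every knockout library below both controls. ANKS1B on the other strand fell as well, from 4.13 and 4.58 FPKM to 2.06, 2.19, 2.31 and 2.07, and its part in the APAF1 value was not tested. The call was made with either guide alone, at -0.63 with guide 1 and -0.42 with guide 2.

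The mitochondrial genes and PIDD1 were not called in BRD8. BAX stood at 110 and 104 FPKM in the controls and at 108, 116, 117 and 103 in BRD8. PMAIP1 ranged from 2.23 to 2.69 FPKM in BRD8 around controls at 2.30 and 2.60, and BBC3 from 0.743 to 1.11 around 1.07 and 1.11. PIDD1 stood at 4.42 and 3.62 FPKM in the controls and at 3.06, 3.47, 3.65 and 3.56 in BRD8. Several of these values rest on few reads, an estimated 22 to 39 fragments for BBC3 and 17 to 35 for CDIP1 per library, so small changes of these genes were not detectable. Guide 2 against guide 1 of BRD8 gave 0 calls among the 9 genes by limma, with 1 gene at an unadjusted p under 0.05 (APAF1), where 0.0118% of all tested genes were called.

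TIP60 (the acetyltransferase KAT5), EP400 (the ATPase that carries out the H2A.Z exchange) and TRRAP (a large scaffold, whose own mRNA was at 82.3% of control and not called, adjusted p = 0.44) belong to the sgNeg2 section and share its control pair. In TIP60 2 of the 10 genes were called higher and 2 lower, where 15.4% of 11382 tested genes were called higher and 26.6% lower (1753 and 3029 genes, or 2353 and 2422 after centring each library on its median). In TRRAP 1 was called higher and 3 lower, where 6.54% were called higher and 7.71% lower. In EP400 1 was called, where 3.83% of tested genes were called. The medians over the 10 genes were -0.15, 0.05 and 0.13 for TIP60, TRRAP and EP400, against -0.09, -0.02 and -0.03 over all tested genes.

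PMAIP1 was the gene that rose in all 3. It stood at 38.1 and 46.1 FPKM in the sgNeg2 pair, at 59.4 and 63.9 in EP400, at 67.7 and 73.5 in TIP60 and at 68.0 and 85.9 in TRRAP, with no overlap. The rises were 1.47-fold in EP400 (0.55 ± 0.14, adjusted p = 0.0452), 1.68-fold in TIP60 (0.74 ± 0.14, adjusted p = 7.13e-04) and 1.83-fold in TRRAP (0.85 ± 0.14, adjusted p = 0.00268). The EP400 call ended when any 1 of the 4 libraries was left out and without the filter, and the TRRAP call without TRRAP guide 2.

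APAF1 moved the other way. From 8.36 and 9.34 FPKM in the controls it went to 3.45 and 3.35 in TIP60, 38.4% of control (-1.16 ± 0.15, adjusted p = 3.79e-05), a call that no single library ended. It went to 6.62 and 4.64 in TRRAP, 63.6% of control (-0.59 ± 0.15, adjusted p = 0.0225), and stood at 5.66 and 5.84 in EP400 (-0.54 ± 0.15, adjusted p = 0.0611). The TRRAP call ended without either sgNeg2 library or without TRRAP guide 2. ANKS1B fell in TIP60 too, from 4.13 and 3.49 FPKM to 1.44 and 0.443, and stood at 2.24 and 1.84 in TRRAP.

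PIDD1 fell in TIP60 and TRRAP, the opposite of its direction in RUVBL1 and RUVBL2. It stood at 10.8 and 8.73 FPKM in the controls, at 8.40 and 5.80 in TIP60 (-0.42 ± 0.16, adjusted p = 0.0394) and at 6.82 and 5.36 in TRRAP (-0.60 ± 0.16, adjusted p = 0.0205). Both calls ended without sgNeg2 replicate 1 or without guide 2 of the target, and the TIP60 call also after that centring and without the filter on low values. BBC3 fell in TRRAP, from 13.6 and 12.03 FPKM to 8.22 and 6.14 (-0.76 ± 0.18, adjusted p = 0.0141), with the same 2 exceptions.

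EDA2R rose in TIP60, from 12.1 and 13.8 FPKM to 18.1 and 17.3, 1.37-fold (0.43 ± 0.15, adjusted p = 0.0366), and that call ended when any 1 of the 4 libraries was left out. Without TRRAP guide 2 all 4 TRRAP calls were lost, and without sgNeg2 replicate 1 or TIP60 guide 2 the 4 TIP60 calls became 2, PMAIP1 and APAF1. CDKN1A and MDM2 were not called in TIP60, EP400 or TRRAP.

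TIP60 was tested directly against EP400 and against TRRAP. TIP60 against EP400 gave 2 of the 10 genes, both lower, where 21.3% of tested genes were called: FAS (-0.66 ± 0.13, adjusted p = 0.00253) and APAF1 (-0.62 ± 0.15, adjusted p = 0.0110). FAS stood at 13.7 and 13.2 FPKM in TIP60 against 22.8 and 20.7 in EP400. TIP60 against TRRAP gave 4 genes, where 38.2% were called: FAS (-0.54 ± 0.13), APAF1 (-0.58 ± 0.15) and CDIP1 (-0.39 ± 0.14) were lower and BBC3 (0.50 ± 0.18) was higher in TIP60. Both counts were close to the shares of all genes called. The APAF1 difference from EP400 was no longer called without either EP400 library, that from TRRAP without TRRAP guide 1, and those of CDIP1 and BBC3 were lost under several such fits.

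**Figure D4:**
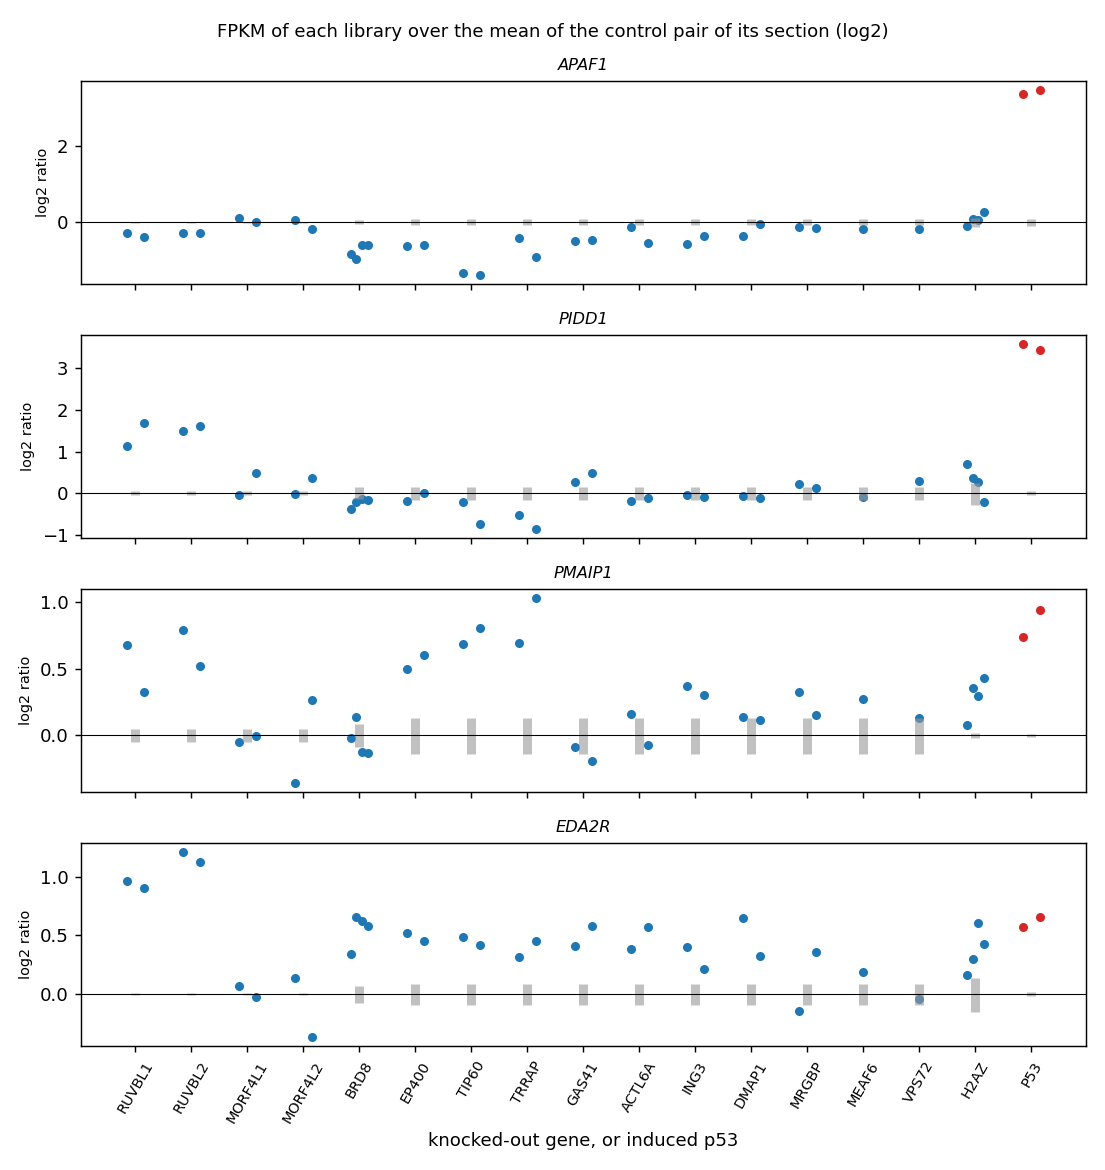
Log2 ratio of the FPKM of each library (points, blue for knockouts and red for p53) to the mean of its own control pair, with grey bars for the span of that pair, for APAF1, PIDD1, PMAIP1 and EDA2R. PIDD1 is above its controls with p53, in RUVBL1, RUVBL2 and GAS41 and in the VPS72 library, and below them in TIP60 and TRRAP. APAF1 is far above its controls with p53. It is below them in every knockout except MORF4L1, MORF4L2, DMAP1 and H2AZ, but was called lower only in BRD8, TIP60 and TRRAP. Knockouts of a section share a control pair, so their directions are not independent.

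In the 7 other knockouts of the sgNeg2 section no member was called by limma. The share of all tested genes called was 0.782% in ACTL6A, 0.264% in MRGBP, 0.0264% in ING3, 0.94% in GAS41 and 0% in DMAP1, MEAF6 and VPS72. At an unadjusted p under 0.05, there were 4 of the 10 genes in GAS41, 3 in ING3, 2 in ACTL6A, 2 in DMAP1 and 0 in MRGBP, MEAF6 and VPS72. Of the 11382 tested genes, 1923 were under that value in GAS41, 1085 in ING3, 1776 in ACTL6A, 1021 in DMAP1, 1459 in MRGBP, 415 in MEAF6 and 402 in VPS72. EDA2R lay above both controls (12.1 and 13.8 FPKM) in both libraries of GAS41, ACTL6A, DMAP1 and ING3, at 15.01 to 20.4 FPKM, without passing the adjusted threshold. APAF1 lay below both controls (8.36 and 9.34 FPKM) in every library of these 7 targets except DMAP1 guide 2, also without a call. All 7 targets share the same sgNeg2 pair, so these directions are not independent of each other. The share of all genes that lie to either side of this pair is not given here. AEN was called higher in ACTL6A when ACTL6A guide 1 was left out.

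H2AZ knockout had 0 of 10 genes called by limma, where 6.02% of 11087 tested genes were called. At an unadjusted p under 0.05 there were 3 of the 10 genes, beside 2338 of all tested. H2AFZ mRNA was at 18.6% of its control, the lowest of all targets. FAS stood at 17.2 and 18.9 FPKM in the sgNeg4 pair and at 20.7, 22.4, 25.7 and 22.9 in H2AZ (0.33 ± 0.11, adjusted p = 0.108). PMAIP1 stood at 49.7 and 51.2 FPKM in the controls and at 53.3, 64.5, 62.1 and 67.9 in H2AZ (0.29 ± 0.11, adjusted p = 0.165). EDA2R stood at 13.5 and 16.6 FPKM in the controls and at 16.9, 18.6, 23.0 and 20.3 in H2AZ (0.36 ± 0.13, adjusted p = 0.153). In these 3 genes, and also in TNFRSF10B and AEN, every H2AZ library lay above both controls. The share of all tested genes without overlap is not given here, so this cannot be weighed. PMAIP1 was called higher when H2AZ guide 1 replicate 1 was left out.

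APAF1 in H2AZ stood at 10.4 and 12.3 FPKM in the controls and at 10.6, 12.1, 11.8 and 13.6 in the knockout, with overlapping groups (0.07 ± 0.12, not called). ANKS1B fell there, from 16.9 and 13.5 FPKM to 7.65, 5.97, 7.99 and 5.09 (-1.09 ± 0.17, adjusted p = 0.00567). ANKS1B was likewise called lower in RUVBL1 and RUVBL2, where APAF1 was not called. Guide 2 against guide 1 of H2AZ gave 0 calls among the 10 genes by limma, 0 also at an unadjusted p under 0.05, where 0% of all genes were called and 301 had an unadjusted p under 0.05.

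Counted by gene, PMAIP1 and EDA2R were each called higher in 4 of 16 knockouts, and FAS, TNFRSF10B and AEN in 3, namely RUVBL1, RUVBL2 and BRD8. CDIP1 was called higher in 2 of 15. PIDD1 was called higher in 2 and lower in 2, BBC3 lower in 1 and APAF1 lower in 3 and higher in 0. Knockouts of a section share a control pair, so these counts are not of independent results. The PMAIP1 calls in EP400, TIP60 and TRRAP all use the sgNeg2 pair. Several calls were not stable to leaving out 1 library, as given above, among them PMAIP1 in EP400 and RUVBL2 and EDA2R in TIP60. Levels differed widely between the genes: in the sgNeg3 pair, per length of transcript, BAX (326 and 314 FPKM) was highest, followed by TNFRSF10B (77.0 and 79.3), PMAIP1 (35.6 and 38.0) and AEN (25.1 and 25.0). FAS, BBC3 and EDA2R came next at 10.3 to 14.4 with overlapping values between BBC3 and EDA2R, then PIDD1 and APAF1 at 7.24 to 8.52, and CDIP1 was lowest (4.15 and 4.22).

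The counts of the wider apoptosis machinery are to be read beside the shares of all genes called, higher and lower: 37.6% and 46.7% with p53, 12.3% and 15.5% in RUVBL1, 13.5% and 19.9% in RUVBL2, 24.2% and 21.7% in BRD8, 15.4% and 26.6% in TIP60, and 6.54% and 7.71% in TRRAP. Of 14 tested genes of the BCL2 family other than the members, p53 induction raised 11 and lowered 3. BIK (0.149 to 11.02 FPKM), BCL2L11 (BIM, 2.29 to 26.6), BAD (34.6 to 146) and BCL2A1, a survival gene (8.53 to 50.02), were the 4 with the smallest adjusted p. In both RUVBL1 and RUVBL2 3 of 13 rose and 1 fell. BCL2L1, the survival gene of BCL-XL, rose by 1.36 ± 0.19 in RUVBL1 and 1.56 ± 0.19 in RUVBL2, from 72.7 to 188 and 217 FPKM. BAK1, which like BAX forms pores and promotes death, rose too, by 0.56 ± 0.14 and 0.57 ± 0.14, and the third was BMF, which promotes death, in RUVBL1 (0.49 ± 0.14) and BCL2A1 in RUVBL2 (1.15 ± 0.36). BCL2L11, which promotes death, fell in both by 1.101 ± 0.13 and 1.22 ± 0.13, from 10.8 to 4.53 and 4.07 FPKM. BCL2L11 also fell in BRD8 (2.86 to 0.623 FPKM) and H2AZ (16.4 to 8.495), so it moved opposite to its rise with p53 in 4 knockouts.

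In TIP60 5 of the 13 BCL2 family genes rose and 3 fell, and in TRRAP 4 rose and 1 fell. MCL1, the survival protein that PMAIP1 binds, rose in both, from 62.2 to 88.8 FPKM in TIP60 and to 90.1 in TRRAP. BMF fell in EP400 and TRRAP, from 7.33 to 2.59 and 1.74 FPKM, whereas BCL2A1 rose in both.

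Of 19 caspase and apoptosome genes p53 raised 4 and lowered 12, 16 in all where 84.3% of all genes were called, with a median of -0.40 against -0.13 over all genes. CASP6 (6.30 to 24.8 FPKM) and CASP10 (0.501 to 5.04) rose, while CYCS (cytochrome c, the partner of APAF1) fell from 51.6 to 18.7 FPKM and AIFM1 from 52.4 to 27.0. In RUVBL1 and RUVBL2 alike 1 of 17 rose and 4 fell, and CASP6, CASP8, BIRC5 and DFFA were those that fell in each, beside 27.8% and 33.4% of all genes called. In TIP60 3 of 18 rose and 5 fell, in BRD8 3 of 15 rose and 5 fell, and in H2AZ 0 of 17 rose and 3 fell. CASP8, the initiator caspase below FAS and TNFRSF10B, fell in TIP60 from 12.2 to 4.27 FPKM.

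The death receptor list held 10 tested genes with p53, of which 6 rose and 2 fell, with EDAR, TNFRSF25, CFLAR and EDA leading. TNFRSF25, a death receptor, fell in RUVBL1, RUVBL2, TIP60 and BRD8, in RUVBL2 from 21.0 to 9.23 FPKM. In RUVBL2 1 of 9 rose and 1 fell, in RUVBL1 0 rose and 1 fell, in BRD8 1 of 7 rose and 3 fell, and in TIP60 1 of 9 rose and 2 fell.

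Of 16 further p53 targets linked to cell death, p53 raised 13 and lowered 2, with a median of 1.26 against -0.13 over all genes. TP53I11, TP53I3, IGFBP3 and PERP led, TP53I3 going from 131 to 644 FPKM. RUVBL1 raised 5 of 15 and lowered 0, and RUVBL2 raised 6 and lowered 0, with PHLDA3 going from 38.9 to 98.7 and 95.0 FPKM. BRD8 raised 5 of 13 and lowered 3, and TIP60 raised 3 of 15 and lowered 4. TP53I3 was among the genes that fell in BRD8, EP400, TIP60 and TRRAP, from 56.9 to 14.8 FPKM in TIP60, and IGFBP3 rose in those 4 and in RUVBL1 and RUVBL2.

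Across the 20 libraries of the sgNeg2 section, which share scaling and controls, the genes did not move as 1 block. Pearson correlations of log2(FPKM + 1) between pairs of the 10 genes ran from -0.80 (BBC3 with PMAIP1, and PMAIP1 with PIDD1) to 0.74 (TNFRSF10B with AEN). The genes whose pattern was most like each called member, among 7696 with a mean of at least 5 FPKM, were FLRT2 (0.974), ZNF395 (0.969) and HOMER2 (0.965) for APAF1. VAT1L (0.938), DPH3 (0.926) and TMEM128 (0.919) were most like PMAIP1, and ISOC2 (0.924), RABL6 (0.912) and RCN3 (0.90) most like PIDD1. ACTB (0.882), TMSB10 (0.876) and FAM89B (0.865) were most like BBC3, and ADAM9 (0.875), FRMD6 (0.874) and PTPRM (0.864) most like EDA2R.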

How the data were processed

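The authors deposited 1 table of FPKM values for 48 libraries. Per the submitters' processing notes the tools were TopHat2, Cufflinks and Cuffdiff and the build hg19, with no version or role given, and strand handling is not given in the sources used here. Column names identified the libraries, and 0 columns were of other samples. Empty columns split the table into 5 sections. Guide 2 of MEAF6 and guide 2 of VPS72 had identical columns (14007 genes above 0), and 46 libraries entered the fits.

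limma 3.58.1 (R 4.3.3) was run per section on log2(FPKM + 1) of genes that reached 1 FPKM in at least 2 libraries, a scale that understates changes of low genes. Each section had 1 fit with 1 level per target (empirical Bayes with trend, two-sided), and Benjamini-Hochberg adjustment ran over all tested genes. MEAF6 and VPS72 borrow their spread from the other libraries. The procedure was tested on simulated data. Depth was estimated from the steps between low values and from GENCODE transcript lengths, and no interval is derived from it. Errors are SE of log2 differences.

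Named were the 10 genes in every comparison, up to 4 called genes with the smallest adjusted p of each pathway list, and the 3 genes most like each member called in the sgNeg2 section. The 10 genes and the lists were chosen with earlier results of these data known. Alternatives were a pseudocount of 0.1, no filter, median centring, the libraries of a comparison alone, each guide alone, the replicate block, the identical column kept, and leaving out each library. Some items are not reported here.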

Additional observations from a re-analysis of the deposited data

Results flagged for a closer look

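In the 4 H2AZ libraries, BAX was highest in guide 1 replicate 1 at 678 FPKM, far above the other 3 (525 to 548 FPKM), and its gap to the nearest made up 0.854 of the range of the group. BBC3 was also highest in that library, at 17.5 FPKM against 11.3 to 11.8 (0.921 of the range). Chance sets apart about 1 in 20 groups by this measure. Each of the 10 genes was screened in this way in both BRD8 and H2AZ, so a flag by chance is likely among them. One sgNeg4 library had BAX at 732 FPKM, above all 4 H2AZ libraries.

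The identical column labelled both MEAF6 guide 2 and VPS72 guide 2, which entered no comparison, lay above both sgNeg2 libraries in 6 of the 10 genes. It held BAX at 566, BBC3 at 18.2, PMAIP1 at 47.3, AEN at 31.1, PIDD1 at 16.5 and CDIP1 at 4.70 FPKM. BAX, BBC3 and PIDD1 were higher in it than in any other library of that section. The count of 6 cannot be weighed, since the share of all genes above both controls in this column is not given here. Which cells it came from cannot be told from the labels.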

How the results depend on the processing

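Counts of called genes were recomputed 187 times, of which 161 stayed within 1.5 times the reported count and 26 did not. Of 379 recomputed values of called genes 318 kept their call, 61 lost it and 0 changed sign. Without the filter the count became 0 in EP400 and 2 in TIP60 against TRRAP. With the libraries of the comparison alone it became 6 in EP400, 2 in TIP60, 2 in GAS41 and 0 in TIP60 against TRRAP, and it was 9 in RUVBL1 and 8 in RUVBL2. Leaving out 1 library gave 2 to 5 calls in BRD8, 0 to 0 in EP400, 2 to 3 in TIP60, 0 to 1 in ACTL6A, 0 to 4 in TRRAP, 0 to 1 in MORF4L2, 3 to 5 in RUVBL1, 0 to 1 in H2AZ, 1 to 4 in TIP60 against EP400 and 2 to 3 in TIP60 against TRRAP. Where such a fit leaves 1 library in a group, that library is assumed to vary like the others of its section. The cause was not tested, except that these fits rest on fewer libraries.

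Replicate numbers of BRD8, H2AZ and p53 libraries did not pair them: deviations of same-numbered libraries correlated at -0.0264 to 0.0286 in BRD8, -0.281 to 0.308 in H2AZ and 0.042 in p53. With the replicate block the counts were 5 in BRD8, 0 in H2AZ, 10 in p53, and 0 between the guides of BRD8 and of H2AZ. Estimated fragment numbers were lowest for BBC3 and CDIP1 in the BRD8 section, where the FPKM of these genes was low, and with 2 libraries a group small differences go unseen.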
